A study of Danio rerio with 8 samples.

Results

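The translation factor transcripts of the early zebrafish embryo were described here as all loci whose single gene name, in lower case, begins with eif or eef and a digit, or with etf1, gspt1 or abce1. The Argonaute genes once named eif2c were left out. The rule uses names only and found 79 loci among 33843, of which 61 carry initiation factor names, 14 elongation factor names and 4 the names of release and recycling factors. They hold 77 distinct names, because eif3hb was listed at 2 positions and eif1b under both a lower-case and an upper-case spelling. By function the set is wider than initiation and elongation: it also takes in kinases and binding proteins that restrain initiation, the exon junction helicase gene eif4a3, the large-subunit anti-association factor gene eif6 and EEF1E1, whose product belongs to the multisynthetase complex.

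Whole embryos were kept in 20 µM SU5402, which blocks the kinase of FGF receptors, from the 2-cell stage, and controls were kept in an equal volume of the solvent DMSO. RNA was taken at dome, a blastula stage that follows the onset of zygotic transcription, from 2 samples of each condition. The authors merged the 2 samples into 1 FPKM value per locus and condition, a read density per transcript length and library, so no value below has a replicate error and the depth per sample is unknown. The labels do not say whether the samples came from separate clutches. SU5402 can also act on other receptor tyrosine kinases, and in whole-embryo RNA fewer cells of a type cannot be told apart from less RNA per cell.

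Protein synthesis starts when eIF2 brings the initiator tRNA to the small ribosomal subunit. The eIF4F complex then recruits the capped mRNA with the help of eIF3, and eIF5 and eIF5B complete start codon recognition and joining of the large subunit. eEF1A delivers aminoacyl-tRNAs and eEF2 moves the ribosome along, until eRF1 and eRF3 end the chain and ABCE1 splits the ribosome. Before zygotic transcription the embryo relies on stored maternal mRNAs, and its gene expression is set largely by how these are translated and cleared. In many cell types receptor tyrosine kinases act on this machinery after transcription, through phosphorylation of eIF4E, of its binding proteins and of the eEF2 kinase, none of which is visible in transcript levels.

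Of the 79 loci, 69 had been tested by the authors, and 2 of them were called different between the conditions, both higher with SU5402. They encode eIF5B, the GTPase of subunit joining, and the beta subunit of eIF2. No member was called lower; 5 of the 69 had an unadjusted p under 0.05 and all 5 of these were higher in SU5402. The 2 calls make up 2.90% of the tested members, against 5.64% of the 12757 tested loci called in either direction, 3.58% called higher and 2.06% called lower. A call here means a q-value, the authors' Cuffdiff p after correction for multiple tests, of at most 0.05. It is not known over which tests q was corrected. Of all tested loci 720 were called by q, while 210 passed an adjustment over these 12757 loci alone. At the level of unadjusted p, 7.25% of the members were under 0.05, against 11.1% of all tested loci, of which 7.03% were higher and 4.08% lower. The members' share, which rests on few loci, lay below that of the table by both of these measures, but above it by the stricter table-wide adjustment described with the 2 genes.

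Transcripts of eif5b had 119 FPKM in control embryos and 238 FPKM in SU5402 embryos. That was a rise of 1.99-fold, or 0.99 on the log2 scale, with q = 0.00103 in the authors' deposited table. The gene lies on chromosome 1 of the Zv9 build from 46395989 to 46426621. No other row was listed at exactly these coordinates, and partial overlaps were not looked for. Its partner in start codon recognition, eif5, which encodes the GTPase-activating protein of eIF2, had 81.2 FPKM in control and 77.9 FPKM in SU5402 and was not called.

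Transcripts of eif2s2, for the beta subunit of eIF2, had 91.6 FPKM in control and 158 FPKM in SU5402. The rise was 1.72-fold, or 0.78 on the log2 scale, with q = 0.000719 in the authors' deposited table. The gene lies on chromosome 6 of Zv9 from 49947208 to 49963592, again without another row at exactly these coordinates. When the authors' p-values were adjusted by the Benjamini-Hochberg method over all 12757 tested loci, which is stricter than their q, eif5b had an adjusted p of 0.0146 and eif2s2 of 0.0105. Both calls therefore held under that adjustment, which 2.90% of the tested members passed and 1.65% of all tested loci passed, 0.996% higher and 0.651% lower in SU5402.

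**Figure D1:**
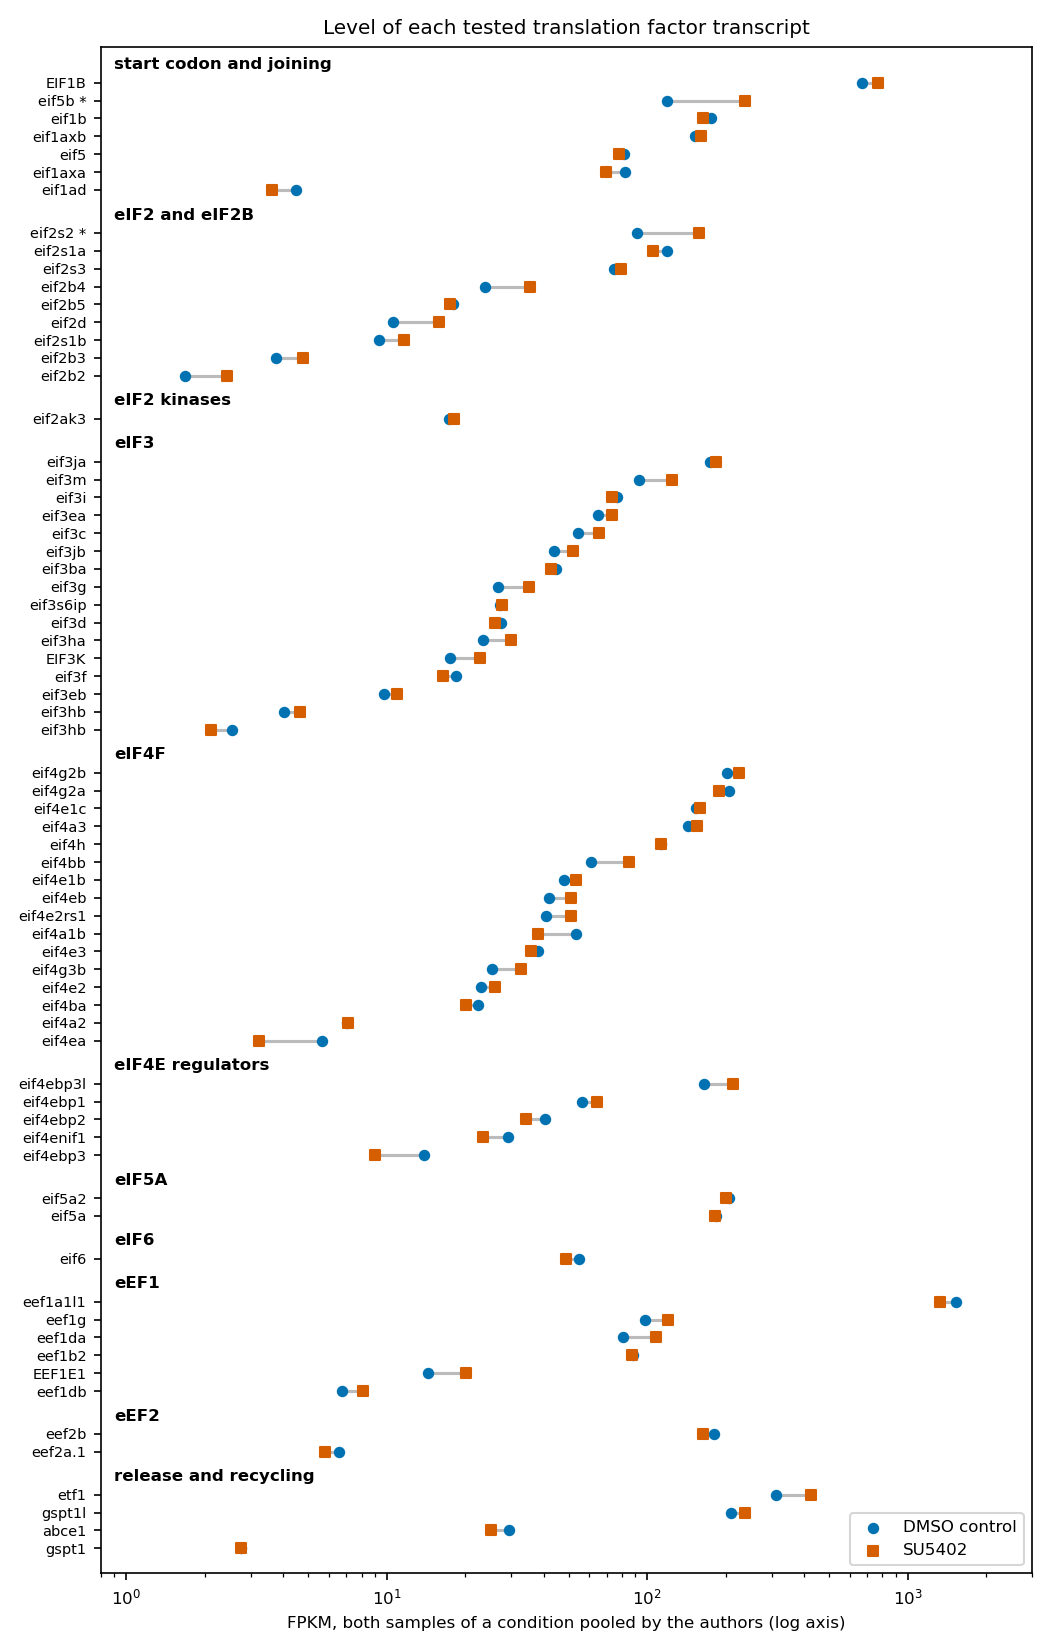
FPKM (log axis) of the 69 tested translation factor loci in DMSO control (circles) and SU5402 embryos (squares), 1 pooled value per condition, grouped by role and ordered by level; an asterisk marks a call. The paired symbols of eif5b (119 and 238 FPKM) and eif2s2 (91.6 and 158 FPKM) are well separated, while those of abundant factors such as eif4h, eif5a and eef1b2 nearly coincide.

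As a group these transcripts were abundant. The median level of the 69 tested members was 44.5 FPKM in control and 50.9 FPKM in SU5402, against 9.94 and 10.3 FPKM over all tested loci. In control embryos 18 members (26.1%) reached 100 FPKM, compared with 6.20% of all tested loci. The 79 loci together made up 1.44% of the summed FPKM of the table in control and 1.41% in SU5402, a nearly equal joint share. Their own sum was 6854 FPKM in control and 7279 FPKM in SU5402. A large part of that sum was eef1a1l1 alone, at 1527 and 1330 FPKM, so the joint share does not describe the typical member. The 10 members not tested were all low, the highest value among them being 2.07 FPKM.

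The spread of the changes was narrow. The median log2 change of the tested members was 0.09, the central 80% of them lay between -0.24 and 0.46, and 62 of 69 (89.9%) stayed within 0.5 of zero on the log2 scale. Over all tested loci the median was 0.04, the same limits were -0.52 and 0.66, and 74.1% stayed within 0.5. Low loci scatter more, so loci of like level were also set beside the members. Between 17.8 and 113 FPKM, the quartiles of the members' mean level, 34 of 35 members (97.1%) and 84.0% of 3903 loci stayed within 0.5. The 2 called members, at mean levels of 125 FPKM (eif2s2) and 178 FPKM (eif5b), lay above this range, so none of the 35 was called. Of those 3903 loci 7.12% were called, and the smallest log2 change with a call was 0.43 in size. Most of the 35 members in this range thus lay below the size at which the authors' test called any locus of that level. A smaller change in them was not detectable in this table. The smallest called size was not computed for members of higher or lower level. Values were higher in SU5402 for 40 members and lower for 29, that is 58.0% higher, against 54.4% of all tested loci.

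**Figure D2:**
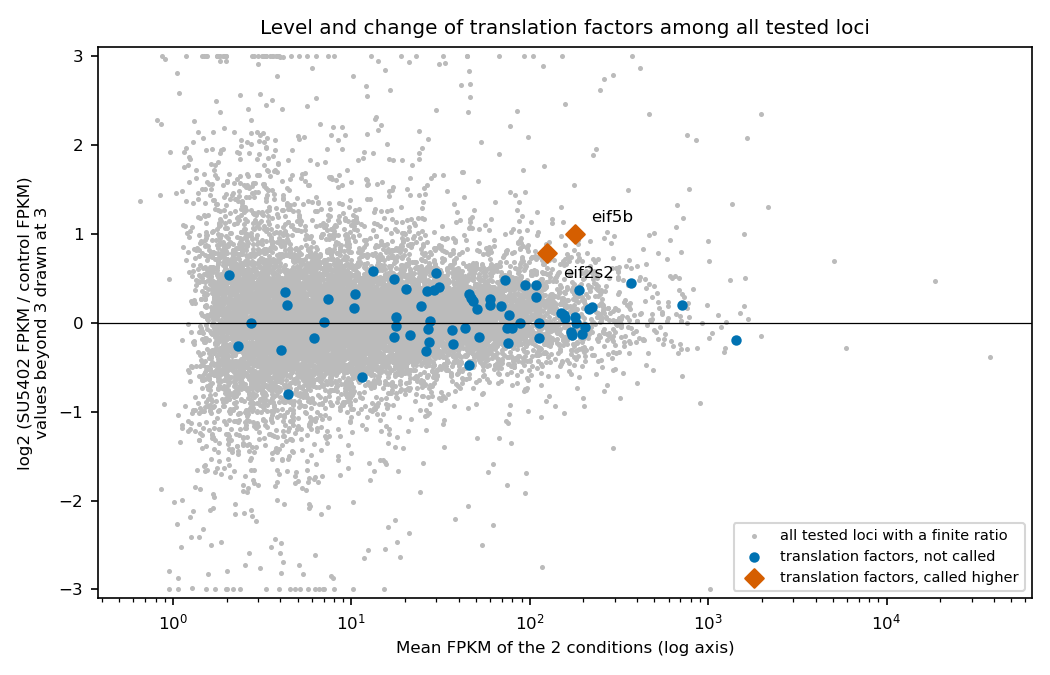
Mean FPKM of the conditions (log axis) against log2 change for all tested loci with a finite ratio (grey), the 67 translation factors that were not called (circles) and the 2 that were called higher (diamonds); values beyond 3 are drawn at 3. Most members sit within the right part of the cloud, and 62 of 69 lie within 0.5 of the zero line. The farthest from it are eif5b at 0.99, eif4ea at -0.80 (not called) and eif2s2 at 0.78.

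Among the factors of start codon selection and subunit joining, eif5b was the only one called. The other 6 members were not called, and their values went up in 2 and down in 4. The most abundant was EIF1B, for a relative of the scanning factor eIF1, with 669 FPKM in control and 767 FPKM in SU5402 (log2 change 0.20, q = 0.403 in the authors' deposited table). The lower-case eif1b locus had 176 and 163 FPKM. The eIF1A genes, whose products hold the scanning ribosome open together with eIF1, had 152 and 161 FPKM for eif1axb and 81.9 and 69.7 FPKM for eif1axa. The low member eif1ad, named for an eIF1A domain, had 4.47 and 3.62 FPKM (log2 change -0.30, q = 0.776 in the authors' deposited table).

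Within the eIF2 trimer, transcripts of the 3 subunits did not move alike. Those of the alpha subunit, which carries the regulatory phosphorylation site, were listed at 128 FPKM in control and 117 FPKM in SU5402, summed over eif2s1a and eif2s1b. The gamma subunit gene eif2s3, for the GTP-binding core, had 74.4 and 79.3 FPKM. The beta subunit stood between the others in control at 91.6 FPKM and above both in SU5402 at 158 FPKM. Neither eif2s1a (log2 change -0.17, q = 0.504 in the authors' deposited table) nor eif2s3 was called, and the difference between subunits was not tested.

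The exchange factor eIF2B reloads eIF2 with GTP, and its subunit genes were listed at unequal levels. The delta subunit gene eif2b4 had 23.9 FPKM in control and 35.4 FPKM in SU5402, and the epsilon gene eif2b5, for the catalytic subunit, 18.0 and 17.6 FPKM. The other 3 were below 5 FPKM in both conditions: eif2b3 had 3.75 and 4.76 FPKM, eif2b2 had 1.68 and 2.44 FPKM, and eif2b1, which was not tested, had 1.90 and 2.07 FPKM. The loci of eif2b2 and eif2b1 share their regions with other rows, so reads there may have been divided between rows. For eif2d, whose product can place initiator tRNA without eIF2, the values were 10.5 and 15.8 FPKM. None of these was called. The eIF2 and eIF2B group, which includes the called eif2s2, had a median log2 change of 0.35 over 9 tested members, with 7 values higher and 2 lower. That median is the value of the low locus eif2b3, and eif2b2, also low, is among the 7. Over all tested loci the median was 0.04 and 54.4% were higher.

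Kinases that phosphorylate eIF2 alpha under stress were low or not called. The endoplasmic reticulum stress kinase gene eif2ak3 (PERK) had 17.3 FPKM in control and 18.1 FPKM in SU5402 (log2 change 0.07, q = 0.851 in the authors' deposited table). The amino acid starvation kinase gene eif2ak4 (GCN2), at 0.931 and 1.48 FPKM, and the double-stranded RNA kinase gene eif2ak2 (PKR), at 0.446 and 1.36 FPKM, were not tested. The heme-regulated kinase gene eif2ak1 was listed only in a locus joined with usp42, at 29.9 and 28.2 FPKM, and does not count among the 79.

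**Figure D3:**
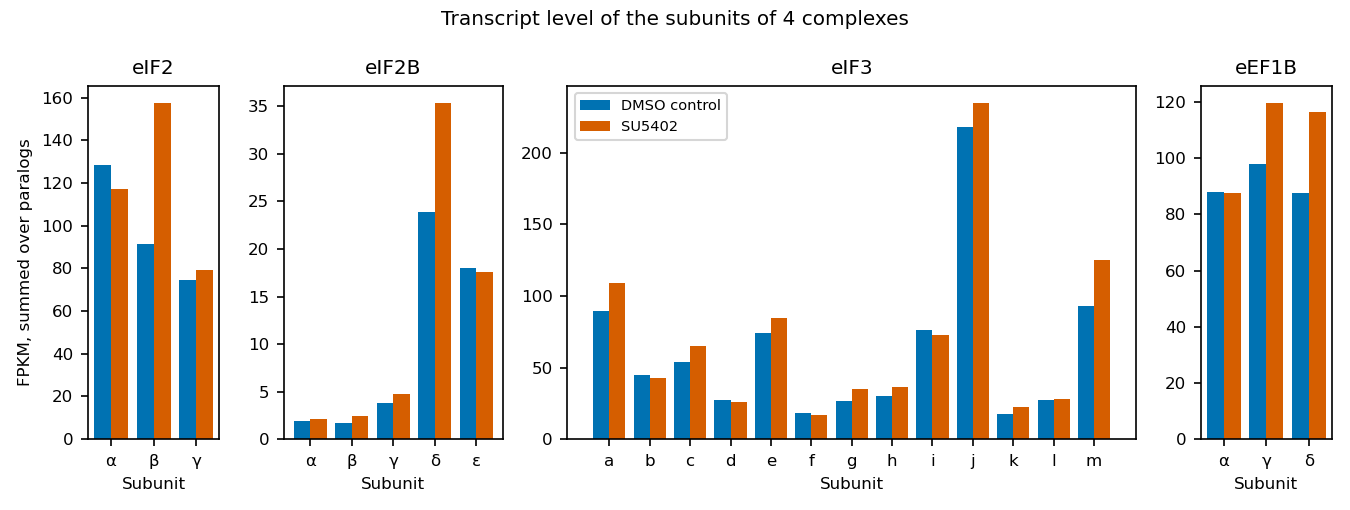
FPKM of each subunit of eIF2, eIF2B, eIF3 and the eEF1B exchange complex in DMSO control and SU5402 embryos, summed over paralogs, with 1 pooled value per condition; the y axes differ between panels. In eIF2 the beta bar goes from 91.6 to 158 FPKM beside nearly level alpha and gamma bars, and in eIF3 no subunit moves by more than 1.34-fold.

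The eIF3 complex, the scaffold that joins the small subunit to the mRNA, was represented by all 13 subunits when the locus eif3s10,emx2 is included for subunit a. None of the 16 tested single-name members was called. Summed over paralogs, the ratio of SU5402 to control ran from 0.897 for subunit f to 1.34 for subunit m, with 9 subunits higher and 4 lower. Subunit m, encoded by eif3m, came nearest to a call, in a region it shares with a row listed at 0: 93.1 FPKM in control and 125 FPKM in SU5402, a log2 change of 0.42 with p = 0.0271 and q = 0.0795 in the authors' deposited table.

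Levels per length varied widely among eIF3 subunits. The loosely attached subunit j was the highest, with 174 and 183 FPKM for eif3ja (log2 change 0.07, q = 0.905 in the authors' deposited table) and 43.8 and 52.0 FPKM for eif3jb. The core subunit genes eif3c (54.1 and 65.3 FPKM), eif3ba (44.5 and 42.7 FPKM) and eif3i (76.3 and 73.1 FPKM) lay in the middle. The lowest subunits, summed over paralogs, were k from EIF3K (17.5 and 22.7 FPKM) and f from eif3f (18.4 and 16.5 FPKM). EIF3K shares its region with another row, so reads there may have been divided between rows. For subunit h, eif3ha had 23.4 and 29.9 FPKM. The pair of eif3hb rows, 67094 bases apart on chromosome 19 of Zv9, had 4.04 and 4.66 FPKM and 2.54 and 2.11 FPKM; the latter was the largest decrease in value of the group (log2 change -0.27, q = 0.789 in the authors' deposited table). The paralog eif3bb was not tested, at 0.0465 and 0.0396 FPKM.

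The cap-binding complex eIF4F and its helpers formed a group of 16 tested members, none of them called. The widest differences in value were those of paralogs on opposite sides of zero. Transcripts of eif4ea, for a cap-binding eIF4E protein, had 5.65 FPKM in control and 3.24 FPKM in SU5402 (log2 change -0.80, p = 0.0578 and q = 0.144 in the authors' deposited table), while eif4eb had 42.1 and 51.1 FPKM. Their sum was 47.8 FPKM in control and 54.3 FPKM in SU5402, so the low paralog carried little of the total. For eIF4B, which stimulates the eIF4A helicase, eif4bb had 60.9 and 85.2 FPKM (log2 change 0.48, p = 0.0287 and q = 0.0832 in the authors' deposited table) and eif4ba 22.3 and 20.2 FPKM.

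Other cap-binding proteins were close between conditions. The most abundant was eif4e1c with 154 FPKM in control and 159 FPKM in SU5402. The germline and oocyte form eif4e1b had 47.8 and 53.3 FPKM in a region shared with other rows. Of the distant relatives, eif4e2, whose mammalian homologue represses translation, had 23.0 and 26.1 FPKM, the related locus eif4e2rs1 had 40.8 and 50.9 FPKM, and eif4e3 had 37.9 and 35.9 FPKM.

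For the helicase eIF4A, the single-name locus eif4a1b had 53.1 FPKM in control and 38.1 FPKM in SU5402, and eif4a2 had 7.03 and 7.09 FPKM. The joined locus eif4a1a,senp3b had 457 and 576 FPKM, which cannot be divided between its 2 genes, and was not called. The gene of the eIF4A helper eIF4H, eif4h (113 and 113 FPKM), and the exon junction helicase gene eif4a3 (144 and 155 FPKM) were not called. Among eIF4G genes, eif4g2a (205 and 188 FPKM) and eif4g2b (202 and 226 FPKM; log2 change 0.16, q = 0.862 in the authors' deposited table) encode a form that lacks the eIF4E-binding part and serves cap-independent initiation. The scaffold gene eif4g3b had 25.4 and 32.7 FPKM.

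Proteins that bind and restrain eIF4E were represented by 5 tested members, and none was called. The eIF4E-binding proteins are released by mTOR phosphorylation and compete with eIF4G when active. Their most abundant transcript was eif4ebp3l, with 165 FPKM in control and 213 FPKM in SU5402 (log2 change 0.37, q = 0.244 in the authors' deposited table). Its paralog eif4ebp3 had 13.9 and 9.05 FPKM (log2 change -0.61, p = 0.0742 and q = 0.174 in the authors' deposited table). The other binding protein genes had 56.1 and 64.2 FPKM for eif4ebp1 and 40.4 and 34.2 FPKM for eif4ebp2. For eif4enif1, the eIF4E transporter that takes part in storing repressed mRNAs, the values were 29.1 and 23.5 FPKM.

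**Figure D4:**
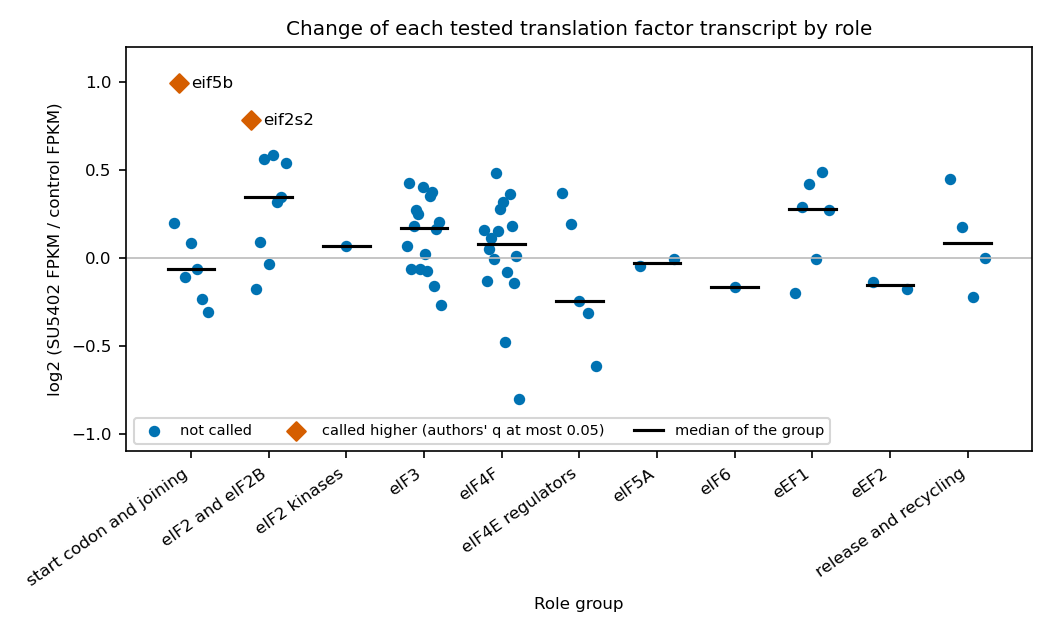
Log2 ratio of SU5402 to control FPKM for the 69 tested members in 11 role groups; each point is 1 locus, diamonds are called loci and black lines are group medians. The called eif5b (0.99) and eif2s2 (0.78) lie above all other tested members, and eif4ea (-0.80) lies lowest without a call.

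Elongation factors showed no call among 8 tested members. The eEF1A transcript came almost wholly from eef1a1l1, the most abundant member of the set, at 1527 FPKM in control and 1330.3 FPKM in SU5402 (log2 change -0.20, q = 0.406 in the authors' deposited table). The other eEF1A genes were not tested: eef1a2, known in mammals from muscle and neurons, had 0.215 and 0.324 FPKM, eef1a1a had 0.127 and 0.0598 FPKM, and eef1a1b was listed at 0 in both. The exchange complex that recharges eEF1A with GTP had near equal levels of its 3 subunits in control, from 87.6 to 98.1 FPKM. In SU5402 the alpha gene eef1b2 was at 87.7 FPKM, the gamma gene eef1g at 119.7 FPKM and the delta genes eef1da and eef1db at 116 FPKM in sum. Of these, eef1da alone went from 80.8 to 108 FPKM with an unadjusted p of 0.0376 and q = 0.103 in the authors' deposited table; it is named because it was 1 of the 5 members with p under 0.05. For EEF1E1 the values were 14.4 and 20.2 FPKM (log2 change 0.49, q = 0.401 in the authors' deposited table).

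The translocation factor eEF2 was listed mainly at eef2b, with 179.9 FPKM in control and 164 FPKM in SU5402 (log2 change -0.14, q = 0.565 in the authors' deposited table). The adjacent rows eef2a.1 (6.55 and 5.80 FPKM; log2 change -0.17, q = 0.673 in the authors' deposited table) and eef2a.2 (0.891 and 1.34 FPKM, not tested) lie 1517 bases apart on chromosome 22 of Zv9. Transcripts of eef2k, the kinase that inhibits eEF2, had 0.515 and 0.274 FPKM and were not tested, as were those of eef2l2 at 0.493 and 0.727 FPKM.

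The eIF5A genes, whose hypusine-bearing products help ribosomes through difficult stretches and in termination, were nearly level. The values were 183 and 182 FPKM for eif5a (log2 change -0.01, q = 0.980 in the authors' deposited table) and 207 and 199.9 FPKM for eif5a2 (log2 change -0.05, q = 0.914). For eif6, which keeps free large subunits from joining small ones, they were 54.7 and 48.9 FPKM (log2 change -0.16, q = 0.630 in the authors' deposited table).

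Release and recycling factor genes were not called either. The eRF1 gene etf1, whose product reads stop codons, had 311 FPKM in control and 426 FPKM in SU5402 (log2 change 0.45, p = 0.0991 and q = 0.216 in the authors' deposited table). For eRF3, its GTPase partner, the signal lay in gspt1l at 209 and 237 FPKM, with gspt1 at 2.75 and 2.75 FPKM. The ribosome recycling ATPase gene abce1 had 29.4 and 25.2 FPKM (log2 change -0.22, q = 0.441 in the authors' deposited table).

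Many of these factors exist as paralog pairs, and 14 pairs with like names were set side by side. In 7 of them, 1 paralog held at least 80% of the summed FPKM in control, as gspt1l (98.7%), eef1da (92.3%), eif2s1a (92.7%) and eif4ebp3l (92.3%) did. The most even pairs were eif4g2a and eif4g2b, with 50.4% in the former, and eif5a2 and eif5a, with 53.0% in the former. The loci of eif4g2a, eif4g2b and eif5a share their regions with other rows, so reads there may have been divided between rows. The share of the paralog that was higher in control moved by at most 7.65 percentage points with SU5402, in the eIF4B pair, where eif4bb went from 73.2% to 80.8%. In 8 of 13 pairs with both members tested, the paralogs' values went opposite ways. The gspt1 pair counts among these although gspt1 itself was level, at 2.75 FPKM in both conditions. Over all tested loci 54.4% were higher in SU5402, so opposite directions are common between any loci, and the count is a description only. No member of any pair was called and the differences within pairs were not tested. Near-identical paralogs can also exchange reads in the authors' quantification.

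Around these factors, a list of 79 names of other genes of translation and related processes matched 63 further loci, of which 56 had been tested. The authors' deposited table called 3 higher and 1 lower (7.14%, against 5.64% of all tested loci), and 52 were not called. The list's median log2 change was 0.09. Because the names were chosen with earlier results of these data known, the share called is a description of the list only. Transcripts of pabpc1a, for the cytoplasmic poly(A)-binding protein that links the mRNA tail to eIF4G, rose 2.11-fold from 424 to 894 FPKM (q = 0.00189). Those of paip2b, for an inhibitor of that protein, rose 1.66-fold from 222 to 368 FPKM (q = 0.000719), and both passed the table-wide adjustment with adjusted p of 0.0239 and 0.0105. The related poly(A)-binding protein gene pabpc1l rose from 42.8 to 61.0 FPKM (q = 0.0370), but its adjusted p over the whole table was 0.219.

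The 1 call in the other direction was atf4b2, for a transcription factor whose own mRNA is translated when eIF2 alpha is phosphorylated, which fell from 12.7 to 6.87 FPKM (q = 0.00807 in the authors' deposited table). This call was lost with the table-wide adjustment of the Cuffdiff p-values, at an adjusted p of 0.0788. PPP1R15A, for a subunit of the phosphatase that reverses eIF2 alpha phosphorylation, had 19.6 and 13.6 FPKM and was not called (q = 0.144). Their relatives were nearer to level and not called. The values were 12.6 and 11.1 FPKM for atf4b1 (q = 0.630) and 11.3 and 12.0 FPKM for PPP1R15B (q = 0.932), the latter in a shared region. Genes that lead from growth factor signals to eIF4F were not called. Those of the eIF4E kinases downstream of ERK had 32.6 and 32.7 FPKM for mknk1, 52.8 and 49.0 FPKM for mknk2a and 25.7 and 32.3 FPKM for mknk2b. The S6 kinase genes had 74.4 and 74.9 FPKM for rps6kb1b and 4.54 and 5.93 FPKM for rps6kb1a, and mtor had 1.97 and 2.07 FPKM. The widest ratio among them was that of rheb, for the GTPase that activates mTOR, with 8.81 and 23.7 FPKM (q = 0.163 in the authors' deposited table) in a region shared with another row. The RNA helicase gene ddx3 had 120.04 and 197 FPKM and was not called (q = 0.168). Its more abundant relative pl10, in a shared region, had 346 and 385 FPKM and was not called (q = 0.749).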

How the data were processed

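RNA-seq of 2 DMSO control and 2 SU5402 samples was used, as 1 table of the authors' own comparison; ATAC-seq, with 4 samples, was left out. The submitters' processing notes name Cuffdiff, Cufflinks, TopHat2 and Picard and the build Zv9 (danRer7), without versions, settings or strand handling. The table, per the file headers and as deposited by the authors, holds 1 FPKM per condition, a log2 fold change, a test statistic (a score, not used), and a p-value and q-value. FPKM is relative to each library, so a change in total RNA would be hidden. Because the table gives no replicate values, depth is unknown and no test was run beyond the authors' own; since nothing says that the samples were separate clutches, p-values may reflect technical spread alone.

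Ratios, medians and paralog sums were computed from the FPKM with Python 3.11.15, pandas 2.3.3 and numpy 2.4.6. The deposited log2 values of the members matched the FPKM ratios within 0.00001. The authors' p-values were also adjusted by the Benjamini-Hochberg method over the 12757 tested loci, with code checked on simulated data; this gave larger values than their q. Of the tested members, 17 share their region with another row, and not all of them are marked where they are named. A shared region means identical listed coordinates, and rows that overlap only in part were not looked for. All 79 names matched the RefSeq table for GRCz12tu, 1 of them (etf1) as a synonym, and its coordinates were not used. Starts had 1 added. The members, role groups and lists were chosen with earlier results of these data known. Log2 changes are given for called members and, per role group, for the most abundant member and the largest and smallest change among tested members with at least 1 FPKM; other members are given by FPKM. The alternatives were the table-wide adjustment, a minimum of 5 FPKM, inclusion of the 4 joined names, omission of shared regions, a pseudocount of 1 FPKM and centring.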

Additional observations from a re-analysis of the deposited data

How the results depend on the processing

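The counts of 2 members called higher and 0 called lower were the same with the table-wide adjustment, with a minimum of 5 FPKM (63 members), with joined names included (73 loci) and without loci that share a region (52 members). The minimum and the omission of shared regions could not change these counts, as both called genes exceed 5 FPKM and share no region. By unadjusted p, 0 members were lower as well, against 5 higher with Cuffdiff's p. The median log2 change of 0.0877 was 0.0786 without loci that share a region and 0.0504 when centred on the median of all loci, 0.0374. The members' median stayed within 0.005 with a pseudocount of 1 FPKM, with a minimum of 5 FPKM and with joined names. Dropping the minimum of 1 FPKM could not move it, because all 69 tested members reached that level. Of the 23 factors with a log2 change in the text, none changed direction when centred; a pseudocount cannot turn a direction, and neither setting touches the q-value. The table-wide adjustment, stricter than q, could only remove the 2 calls, and removed neither. No paired analysis was possible because the table holds 1 pooled value per condition, and for the same reason no sample could be left out. Without depth or replicate values, a change below the sizes the authors' test called cannot be told from none.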
